A study of Homo sapiens with 12 samples.

Results

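The genes described here are the nuclear-encoded genes of oxidative phosphorylation as they were measured in HCT116, a human colon carcinoma cell line, and in Hke3 and Hkh-2, which were derived from it. Members were chosen by gene symbol alone: every probe set of the array with a single platform symbol that starts with NDUFA, NDUFB, NDUFC, NDUFS, NDUFV, UQCR, COX4, COX5, COX6, COX7, COX8 or ATP5, or that reads SDHA, SDHB, SDHC, SDHD or CYC1. The rule took 174 of the 41097 probe sets with 1 symbol, which stand for 91 of 19775 genes. Of these 91 genes, 33 encode subunits of complex I, 3 of complex II, 7 of complex III, 16 of complex IV and 18 of complex V, including the inhibitor ATP5IF1. The prefixes also took 8 assembly factors of complex I (NDUFAF1 to NDUFAF8), which are not subunits, and 6 other transcripts, namely COX7A2L, COX6A1P1, ATP5MC2P1, NDUFB2-AS1, NDUFV2-AS1 and NDUFV1-DT. Both of these classes were kept apart from the subunits below. A gene was tested when at least 1 group had a mean of 6 or more on the log2 scale of the deposited values, which 84 of the 91 members and 12852 of all 19775 genes did. The 7 members below that level were COX6A2, COX7A1, COX7B2, COX8C, ATP5MF, ATP5MC2P1 and NDUFV2-AS1. For ATP5MF this rests on a dim probe set with group means of 5.63 to 5.73. Another probe set of ATP5MF also names a second gene and was left out by the rule. The subunit genes NDUFS8, NDUFS5, NDUFC2, SDHB, UQCRFS1, UQCRH, UQCRHL and ATP5MGL were not analysed here, and the complex IV genes that the platform calls COXFA4 and COXFA4L2 lie outside the rule.

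Gene expression was measured on 12 oligonucleotide arrays in 4 groups of 3. HCT116 carries an oncogenic RAS allele, and the HCT116 control cells of an inducible knockdown design were sampled at day 3 after vehicle or after 25 ng/ml doxycycline, the drug that switches on such a system. Hke3 and Hkh-2 are isogenic lines made from HCT116 by homologous recombination at that allele and were grown without either agent. Each recombined line is 1 clone with its own history, so clone and genotype cannot be told apart within a line, and all 12 arrays share the HCT116 background. Knockdown arrays were not analysed here. Separate cultures are not stated for the 3 arrays of any group, so p-values measure the spread between these arrays, which may be technical. The epithelial label was borne out by EPCAM, with group means of 13.09 to 13.24, and by KRT18, with 14.01 to 14.54, whereas the colon markers CDH17 and LGALS4 stayed under 6 in every group. The blood cell markers PTPRC, CD3D, CD3E and CD14 had group means of 3.80 to 6.18. Array medians over all probe sets ran from 5.80 to 5.86. Replicate 2 of HCT116 control vehicle and replicate 3 of Hke3 lay apart from the rest of their groups: the SD of the members' deviations from the group mean was 0.125 and 0.152 in these arrays, against 0.0418 to 0.0846 in the other 10. Some values below are also given without both. These arrays were picked for large deviations in the same values, so leaving them out lowers the spread by that choice. Smaller adjusted p-values without them are therefore not separate support for a call.

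Oxidative phosphorylation takes place in the inner mitochondrial membrane. Complexes I and II pass electrons from NADH and succinate to ubiquinone, complex III passes them on to cytochrome c and complex IV to oxygen, while complexes I, III and IV pump protons that drive ATP synthesis by complex V. The subunits come from both genomes: a few hydrophobic core subunits of complexes I, III, IV and V are made inside the mitochondrion from mitochondrial DNA, and all others, the whole of complex II included, are encoded in the nucleus and imported. Many of the nuclear genes are known targets of the transcription factors NRF1, GABP (an ETS family factor) and YY1, and their transcripts are abundant in most cell types, colon epithelium included.

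The promoters of the members are shown first because these factors are the known link between genes that sit on many chromosomes. RefSeq promoter windows of 300 bases (250 before to 50 after a transcription start, build GRCh38.p14) were at hand for 76 of the 91 members, in 94 windows. Of these windows, 23 (24.5%) held the ETS core CCGGAAG on either strand, against 10.3% of all 35116 windows and 16.1% of the 15041 windows of tested genes. The NRF1 core GCATGCG stood in 16 member windows (17%), against 3.91% and 5.46%. The YY1 core ATGGCGG stood in 24 (25.5%), against 5.55% and 8.94%. At least 1 of the 3 cores was found in the windows of 40 of the 76 members (52.6%). The NRF1 core overlaps its own reverse complement where the run CGCATGCG occurs, and the YY1 core contains ATG, so it can fall on a start codon. These matches are a description of letters and not of bound sites. The windows of 5 members are printed, from 170 bases before to 30 after the start, 5′ to 3′ on the gene's strand. NDUFA12 and NDUFA10 are shown for the size of their differences described below, NDUFB4 and NDUFB7 as called members with 1 kind of core, and SDHD as a member with all 3 kinds that was not called in any comparison. Capitals mark the core letters.
NDUFA12 (chr12:95003668-95003867, minus strand): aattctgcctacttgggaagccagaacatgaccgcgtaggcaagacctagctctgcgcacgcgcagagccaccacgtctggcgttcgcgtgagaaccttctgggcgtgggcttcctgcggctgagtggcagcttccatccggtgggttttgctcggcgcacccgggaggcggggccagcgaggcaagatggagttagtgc
NDUFA10 (chr2:240025313-240025512, minus strand): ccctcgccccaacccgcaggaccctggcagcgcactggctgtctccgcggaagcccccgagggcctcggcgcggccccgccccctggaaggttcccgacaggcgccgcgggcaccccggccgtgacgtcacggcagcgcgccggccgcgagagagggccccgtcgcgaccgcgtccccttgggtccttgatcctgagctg
NDUFB4 (chr3:120596166-120596365, plus strand): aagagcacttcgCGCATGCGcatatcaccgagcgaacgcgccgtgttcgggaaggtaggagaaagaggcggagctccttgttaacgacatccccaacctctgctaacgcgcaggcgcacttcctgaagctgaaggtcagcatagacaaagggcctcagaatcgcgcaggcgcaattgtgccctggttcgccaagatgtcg
NDUFB7 (chr19:14572037-14572236, minus strand): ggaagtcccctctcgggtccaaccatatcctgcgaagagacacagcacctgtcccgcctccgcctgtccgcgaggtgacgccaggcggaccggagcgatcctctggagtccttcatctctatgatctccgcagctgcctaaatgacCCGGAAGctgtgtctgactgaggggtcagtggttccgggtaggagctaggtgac
SDHD (chr11:112086703-112086902, plus strand): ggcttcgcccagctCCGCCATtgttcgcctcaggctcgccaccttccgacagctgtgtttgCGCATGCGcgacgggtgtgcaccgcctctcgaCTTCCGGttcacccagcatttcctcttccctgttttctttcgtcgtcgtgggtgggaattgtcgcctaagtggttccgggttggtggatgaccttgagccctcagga
The capitals are NRF1 cores on both strands in NDUFB4, an ETS core in NDUFB7, and in SDHD a YY1 core, overlapping NRF1 cores and an ETS core in that order. Neither NDUFA12 nor NDUFA10 held any of the 3 cores in its window.

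Differences are given below as the HCT116 control vehicle mean minus the mean of a recombined line on the log2 scale, so that a positive value is a gene that was higher in HCT116. The methods also name parental HCT116 in basal culture, which was not analysed here, so vehicle and the culture scheme of the knockdown design, with any vector the control cells carry, differ together with genotype in these differences and cannot be told apart from it. A gene was called when its Benjamini-Hochberg adjusted p over all 12852 genes was under 0.05 in limma, a linear model with a shared estimate of the spread. Between HCT116 control vehicle and Hke3, 19 of the 84 members were higher in HCT116 and 17 were lower. The share of all genes tested was 24.6% higher and 23.2% lower, so the members' 22.6% and 20.2% lay near the background in both directions. Between HCT116 control vehicle and Hkh-2, 6 members were higher in HCT116 and 13 were lower, or 7.14% and 15.5%, against 14.3% and 21.7% of all genes. Between Hke3 and Hkh-2, 9 members were higher in Hke3 and 19 were lower, or 10.7% and 22.6%, against 16.3% and 23.5% of all genes. The split between directions moved with the scaling. With the array median subtracted, the comparison with Hke3 had 13 higher and 19 lower (20.7% and 25.3% of all genes). After cyclic loess, the comparison with Hkh-2 had 11 higher and 8 lower (15.8% and 20.4%), and Hke3 against Hkh-2 had 11 and 12 (19.4% and 19.8%). Because RNA was taken from bulk cultures, less RNA per cell and fewer cells of a kind cannot be told apart. The 3 comparisons share arrays, so their values are set side by side and not counted as separate support.

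The members' differences were small in size. A called difference of at least 0.5 on the log2 scale was found for 8 members against Hke3 (22.2% of all genes tested), for 1 against Hkh-2 (16.5%) and for 7 between both recombined lines (18.4%), and no member reached 1 in any of the 3. The median difference of the 84 members was 0.05 against Hke3, -0.01 against Hkh-2 and -0.07 for Hke3 minus Hkh-2, beside 0.04, -0.02 and -0.06 over all genes tested. The median absolute difference was 0.152, 0.119 and 0.136 for the members and 0.247, 0.194 and 0.208 for all genes. Below 0.25 lay 69% of the members against Hke3, 79.8% against Hkh-2 and 72.6% between the recombined lines, where all genes had 50.5%, 60% and 56.3%. By probe set brightness, 65 of 84 members (77.4%) and 11.9% of all genes had a mean of at least 11, and the median residual SD was 0.0719 for the members and 0.124 for all genes. Among genes with a mean of at least 11, 23 of 65 members (35.4%) were called against Hke3 beside 49.9% of all 1527 such genes. At the same level 14 members (21.5%) were called against Hkh-2 beside 36.8%, and 19 (29.2%) between the recombined lines beside 39%. Their median absolute differences there were 0.125, 0.0891 and 0.130, against 0.213, 0.162 and 0.169 for all genes of that level.

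**Figure D1:**
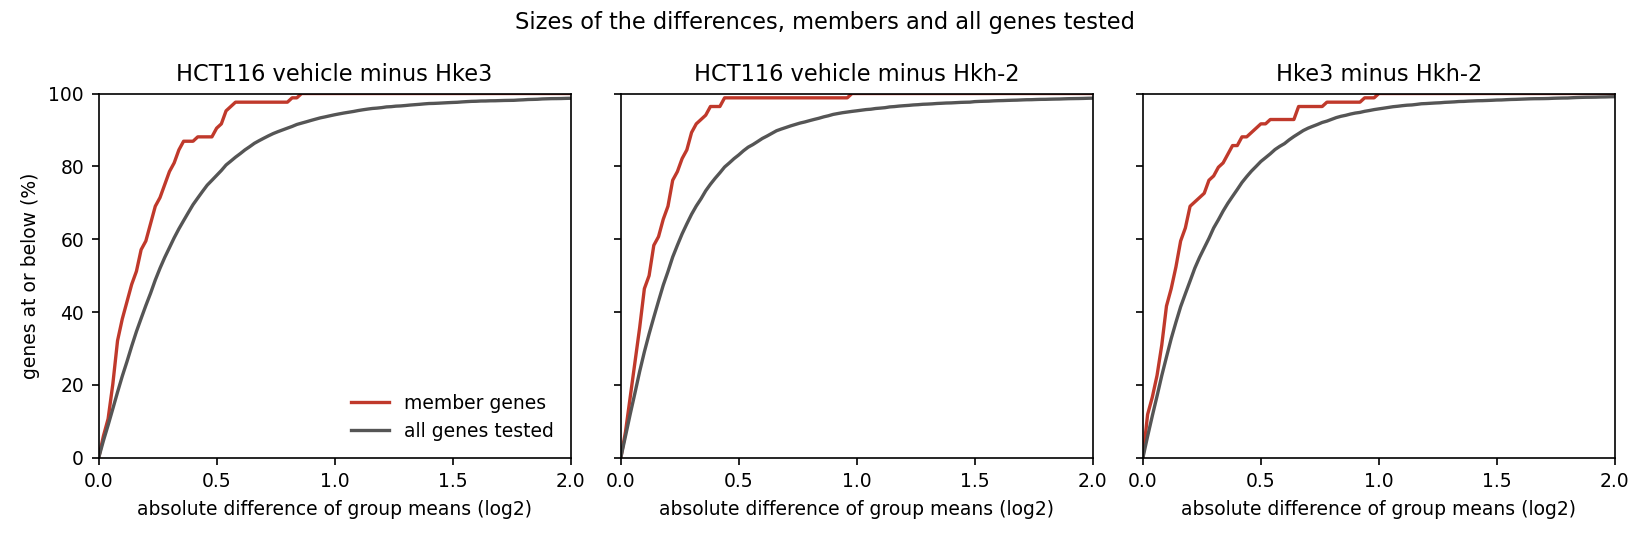
Share of genes (vertical axis, %) whose absolute difference between group means lies at or below the value on the horizontal axis (log2), for the 84 member genes (red) and all 12852 genes tested (grey), in the 3 comparisons that involve a recombined line. The red curve lies to the left in each panel: below 0.25 are 69%, 79.8% and 72.6% of the members and 50.5%, 60% and 56.3% of all genes.

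Leaving out HCT116 control vehicle replicate 2 and Hke3 replicate 3 raised the counts for members and for all genes, but not to the same degree. The comparison with Hke3 then had 25 higher and 18 lower members (29.8% and 24.6% of all genes). The comparison with Hkh-2 went from 6 higher and 13 lower of 84 members to 12 and 25. All genes went from 14.3% and 21.7% to 19.2% and 28.4% there. The members' smaller share against Hkh-2 thus depended in part on these arrays. Hke3 minus Hkh-2 had 18 and 24 (22.8% and 34.2%). Of the called members in the comparison with Hke3, 34 of 36 remained called in the same direction, and NDUFAF8 and NDUFB2-AS1 did not. All 19 and all 28 called members of the other comparisons remained called.

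**Figure D2:**
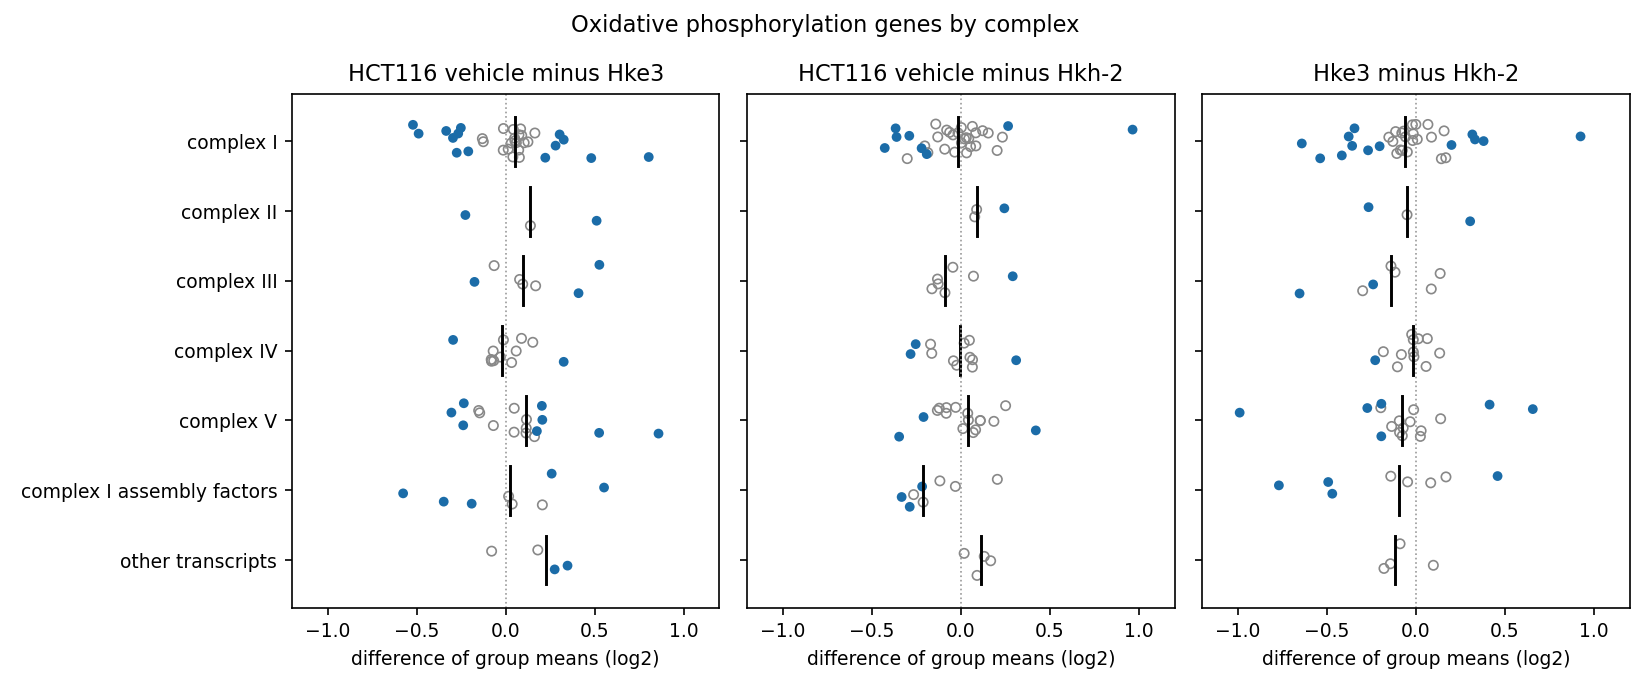
Difference of group means (log2, horizontal axis) of each tested member by class (vertical axis) in 3 comparisons. Filled points have an adjusted p under 0.05, open points do not, and the black bar is the class median. Points lie on both sides of 0 in each complex, except complex II in the comparison of HCT116 vehicle with Hkh-2, and single genes such as NDUFA12 at 0.96 stand far from the rest of their class.

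Complex I, which takes electrons from NADH, is the largest class. Against Hke3, HCT116 had 6 of its 33 tested genes higher and 8 lower. Against Hkh-2 it had 2 higher and 6 lower, and Hke3 against Hkh-2 had 5 and 8. The median differences were 0.05, -0.02 and -0.06, close to those of all genes. Among the 5 tested core subunits, which carry the electron path, NDUFS7 was higher (0.22) and NDUFV2 lower (-0.25) in HCT116 than in Hke3. NDUFV2 (-0.37) and the flavin-binding NDUFV1 (-0.22) were lower than in Hkh-2. The NDUFS7 call was lost in 10 of 12 fits that each left out 1 array, and its difference was 0.34 (adjusted p = 0.00244) without both arrays that lay apart. The NDUFV1 call was lost in 9 of 12 such fits, and with the mean of its probe sets the difference was -0.05 (adjusted p = 0.648). The remaining core subunits NDUFS1 and NDUFS3 were not called in any comparison, with differences from -0.08 to 0.10, by their brightest probe sets. Of the dimmer probe sets of NDUFS1, a pair was lower in HCT116 than in Hke3, by -0.54 (adjusted p = 0.0291) and -0.64 (adjusted p = 0.0421).

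NDUFA12, an accessory subunit of the arm that reaches into the matrix, had the lone called difference of at least 0.5 against Hkh-2. Its values were 11.55, 11.57 and 11.56 in HCT116 vehicle, 11.72, 11.62 and 11.54 in HCT116 doxycycline, 11.56, 11.48 and 11.52 in Hke3, and 10.52, 10.62 and 10.64 in Hkh-2. All 3 Hkh-2 arrays lay below the other 9, which formed a single range. The difference was 0.96 (SE 0.07, adjusted p = 2.29e-07) between HCT116 vehicle and Hkh-2 and 0.92 (adjusted p = 4.44e-07) between Hke3 and Hkh-2, whereas HCT116 minus Hke3 was 0.04 (adjusted p = 0.659). One probe set measures the gene.

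NDUFA10, another accessory subunit, was lower in both recombined lines, and more so in Hke3. It read 11.79, 11.81 and 11.71 in HCT116 vehicle, 11.78, 11.79 and 11.77 with doxycycline, 10.99, 10.92 and 10.99 in Hke3, and 11.46, 11.56 and 11.50 in Hkh-2. The 3 cell lines did not overlap. HCT116 exceeded Hke3 by 0.80 (SE 0.06, adjusted p = 5.09e-07) and Hkh-2 by 0.27 (adjusted p = 0.00559), and Hke3 lay under Hkh-2 by -0.54 (adjusted p = 2.86e-05). When all probe sets of the gene were averaged, 4 of which were dim and had not been used, the difference from Hkh-2 became 0.06 (adjusted p = 0.597).

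The accessory subunits of the distal membrane arm did not move as a block. NDUFB9 was higher in HCT116 than in Hke3 by 0.48, NDUFB11 by 0.33 and NDUFB10 by 0.30, while NDUFB7 was lower by -0.49, NDUFB4 by -0.33, NDUFB3 by -0.30 and NDUFB1 by -0.21. NDUFB9 had values of 13.32, 13.34 and 13.38 in HCT116 vehicle and 12.80, 12.82 and 12.99 in Hke3. NDUFB7 had 9.65, 9.58 and 9.60 in HCT116 vehicle and 10.13, 10.10 and 10.07 in Hke3, with Hkh-2 between them at 9.76, 9.97 and 9.96. The arrays of HCT116 vehicle and Hke3 did not overlap for either gene. NDUFB11 did overlap, because HCT116 vehicle replicate 2 read 11.53 where replicates 1 and 3 read 11.07 and 11.12, and its difference was 0.27 (adjusted p = 0.0121) without both arrays that stood apart.

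Among the other accessory subunits, NDUFA7 was lower in HCT116 than in Hke3 (-0.52, SE 0.09, adjusted p = 0.000356), as were NDUFA3 (-0.27) and NDUFS4 (-0.27). NDUFA3 (-0.43) was also lower than in Hkh-2, and with it NDUFB7 (-0.29) and NDUFB4 (-0.19). NDUFV3, which belongs to the flavoprotein part, went opposite ways: HCT116 lay above Hke3 by 0.28 (adjusted p = 0.0247) and below Hkh-2 by -0.36 (adjusted p = 0.00838). The values were 10.12, 10.24 and 10.29 in HCT116 vehicle, 9.84, 9.83 and 10.14 in Hke3, and 10.53, 10.57 and 10.62 in Hkh-2, so Hkh-2 stood clear of both other lines. Without probe sets that may bind several transcripts, the difference from Hkh-2 turned to 0.22 (adjusted p = 0.0766), so its direction depends on the probe set. Between the recombined lines, NDUFA12 and the genes NDUFA7 (0.38), NDUFS4 (0.33), NDUFB3 (0.32) and NDUFB7 (0.20) were higher in Hke3. NDUFV3 (-0.64), NDUFA10 (-0.54), NDUFB11 (-0.42), NDUFC1 (-0.38), NDUFB9 (-0.36), NDUFV1 (-0.34), NDUFA11 (-0.27) and NDUFA13 (-0.20) were lower.

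**Figure D3:**
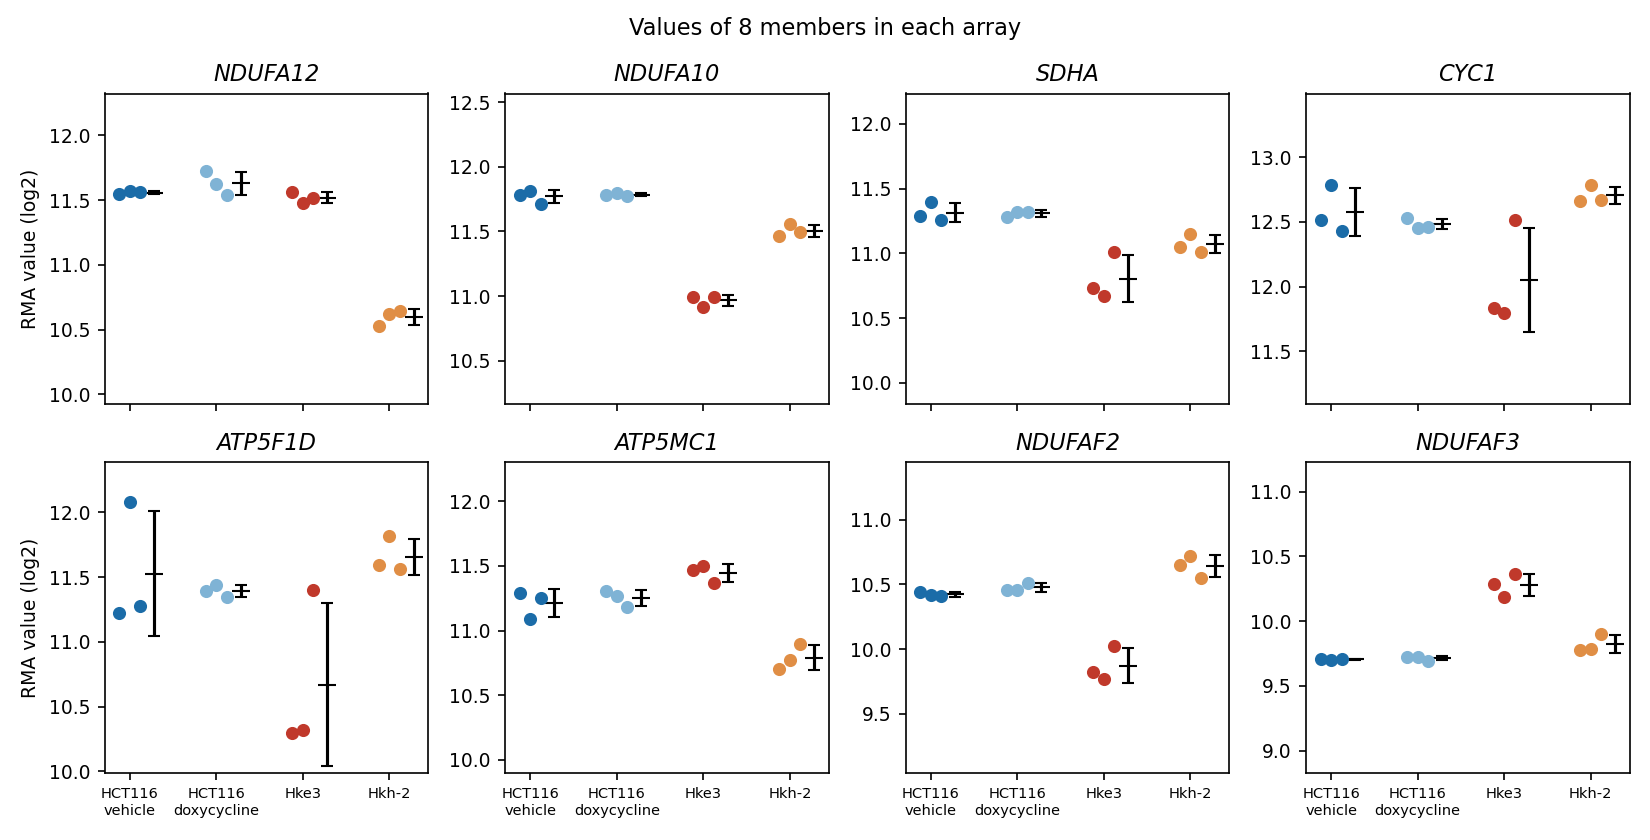
RMA values (log2, vertical axis) of NDUFA12, NDUFA10, SDHA, CYC1, ATP5F1D, ATP5MC1, NDUFAF2 and NDUFAF3 in each of the 12 arrays by group (horizontal axis), with each group's mean and SD as a black bar. Every panel spans the same range of log2 units around its own centre, and levels are not to be compared between panels. NDUFA12 is low in all 3 Hkh-2 arrays (10.52 to 10.64), and in Hke3 the CYC1 and ATP5F1D points split into a low pair and replicate 3 at 12.52 and 11.40.

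Complex II, which oxidises succinate and belongs to the citric acid cycle as well, had 3 measured genes. SDHA, the flavoprotein, read 11.29, 11.40 and 11.26 in HCT116 vehicle, 11.28, 11.32 and 11.32 with doxycycline, 10.74, 10.67 and 11.01 in Hke3, and 11.05, 11.15 and 11.01 in Hkh-2. Both recombined lines lay wholly below HCT116. The difference was 0.51 (SE 0.09, adjusted p = 0.000462) from Hke3 and 0.24 (adjusted p = 0.0479) from Hkh-2, and the second was lost in 10 of 12 fits that each left out 1 array. SDHC, a membrane anchor, went the other way, at -0.23 (adjusted p = 0.0493) for HCT116 minus Hke3, and lost its call in 11 of 12 such fits. Without both arrays that stood apart it was -0.27 (adjusted p = 0.0118). With every probe set tested by itself, others of SDHC gave -0.34 (adjusted p = 0.0117), -0.29 (adjusted p = 0.0157) and -0.25 (adjusted p = 0.0347). The brightest then had adjusted p = 0.0556, and dimmer ones at -0.15 and -0.05 were not called. SDHD, the second anchor, was not called in any comparison, with 0.14 from Hke3 (adjusted p = 0.212) and 0.09 from Hkh-2 (adjusted p = 0.473). Hke3 minus Hkh-2 was -0.27 for SDHA, 0.30 for SDHC and -0.05 for SDHD.

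Complex III had 2 genes higher and 1 lower of 7 against Hke3, 1 higher and 0 lower against Hkh-2, and 0 higher and 2 lower for Hke3 against Hkh-2. These are 42.9%, 14.3% and 28.6% called, where all genes tested had 47.8%, 36% and 39.8%. UQCRC2, a large core protein of the complex, was higher in HCT116 than in either recombined line. Its values were 12.70, 12.56 and 12.62 in HCT116 vehicle, 12.25, 12.27 and 12.14 in Hke3, and 12.28, 12.34 and 12.38 in Hkh-2. No HCT116 vehicle array overlapped with them, at differences of 0.41 (SE 0.07, adjusted p = 0.000336) and 0.29 (adjusted p = 0.00478). UQCRC1, the other core protein, was not called, with 0.17 from Hke3 (adjusted p = 0.259) and -0.13 from Hkh-2 (adjusted p = 0.424).

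CYC1 encodes cytochrome c1, which hands electrons to cytochrome c. It read 12.51, 12.78 and 12.43 in HCT116 vehicle, 12.53, 12.46 and 12.46 with doxycycline, 11.83, 11.80 and 12.52 in Hke3, and 12.66, 12.78 and 12.67 in Hkh-2. Hke3 replicates 1 and 2 lay below all other arrays, whereas Hke3 replicate 3 fell among the HCT116 values. HCT116 minus Hke3 was 0.53 (SE 0.16, adjusted p = 0.0146), lost in 3 of 12 fits without 1 array, at up to adjusted p = 0.0713. Without both arrays that stood apart it was 0.66 (adjusted p = 1.46e-05). Hke3 minus Hkh-2 was -0.65 (adjusted p = 0.00524), and HCT116 minus Hkh-2 was -0.13 (adjusted p = 0.568). Of the small subunits, HCT116 had less UQCR10 than Hke3 (-0.18, adjusted p = 0.0473, lost in 11 of 12 fits), and UQCR11 was lower in Hke3 than in Hkh-2 (-0.24).

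Complex IV had few calls. Against Hke3, HCT116 had 1 of 12 tested genes higher and 1 lower. Against Hkh-2 it had 1 higher and 2 lower, and Hke3 against Hkh-2 had 0 and 1. Calls made up 16.7%, 25% and 8.33% of its tested genes, beside 47.8%, 36% and 39.8% of all genes. The common subunit COX4I1 read 13.50, 13.47 and 13.49 in HCT116 vehicle, 13.34, 13.33 and 13.34 in Hke3, and 13.41, 13.43 and 13.47 in Hkh-2, a difference of 0.15 from Hke3 (adjusted p = 0.0508) and 0.05 from Hkh-2 (adjusted p = 0.57). Its difference from Hke3 was called under other settings, at 0.21 (adjusted p = 0.0211) with the mean of its probe sets and 0.40 (adjusted p = 0.00374) without probe sets that may bind several transcripts. HCT116 had less COX7B than Hke3 (-0.30, SE 0.07, adjusted p = 0.00388) and Hkh-2 (-0.28, adjusted p = 0.0068), with HCT116 vehicle at 12.42, 12.53 and 12.43 and all 6 arrays of the recombined lines between 12.69 and 12.85. Averaged over its probe sets, COX7B gave -0.08 and -0.14 and was not called. COX5B was lower than in Hkh-2 by -0.25 with its brightest probe set, but a dimmer probe set of the gene gave 0.64 (adjusted p = 0.0259) in the opposite direction.

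Several complex IV subunits have isoforms that are restricted to one or a few tissues. COX6B2, known from testis, read 6.51, 6.49 and 6.50 in HCT116 vehicle, 6.54, 6.54 and 6.40 with doxycycline, 6.22, 6.09 and 6.21 in Hke3, and 6.25, 6.04 and 6.28 in Hkh-2, near the limit set for testing. HCT116 exceeded Hke3 by 0.33 (adjusted p = 0.00457) and Hkh-2 by 0.31 (adjusted p = 0.00798), with no overlap of the arrays. Its common partner COX6B1, at group means of 12.18 to 12.30, was not called in any comparison. COX4I2, an isoform known from lung, had group means of 6.57 to 6.66 and was not called. The muscle isoforms COX6A2 and COX7A1 and the testis genes COX7B2 and COX8C had no group mean of 6. The common isoforms COX6A1, COX7A2 and COX8A had group means of 12.65 to 13.18 and were not called.

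Complex V, the ATP synthase, had 5 genes higher and 3 lower of 17 in HCT116 against Hke3, 1 higher and 2 lower against Hkh-2, and 2 higher and 4 lower in Hke3 against Hkh-2. Its shares called were 47.1%, 17.6% and 35.3%, and those of all genes tested were 47.8%, 36% and 39.8%. All 5 tested genes of the F1 part, which makes ATP, had positive differences from Hke3, and 3 were called: ATP5F1D (0.86), ATP5F1B (0.52) and ATP5F1A (0.20). ATP5F1C and ATP5F1E, at 0.11 and 0.12, were not called. Of all genes tested, 24.6% were higher in this comparison. Against Hkh-2 the differences of these F1 subunits ran from -0.13 to 0.25 and did not pass the test, with adjusted p from 0.0537 to 0.74. ATP5F1B, the catalytic beta subunit, had 13.28, 13.38 and 13.26 in HCT116 vehicle, 13.29, 13.26 and 13.27 with doxycycline, 12.70, 12.62 and 13.02 in Hke3, and 13.07, 13.09 and 12.99 in Hkh-2. The HCT116 arrays lay above all arrays of both recombined lines, at 0.52 (SE 0.09, adjusted p = 0.000575) from Hke3 and 0.25 (adjusted p = 0.0537) from Hkh-2.

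ATP5F1D, the delta subunit of the central stalk, had a within-group SD of 0.48 in HCT116 vehicle and 0.63 in Hke3. Its values were 11.22, 12.08 and 11.27 in HCT116 vehicle, 11.39, 11.44 and 11.34 with doxycycline, 10.29, 10.32 and 11.40 in Hke3, and 11.60, 11.82 and 11.56 in Hkh-2. Replicate 2 of HCT116 vehicle and replicate 3 of Hke3 were each high for their group, and the groups overlapped. HCT116 minus Hke3 was 0.86 (SE 0.27, adjusted p = 0.0181), lost in 3 of 12 fits without 1 array, where it ran from 0.58 to 1.22. Without both arrays it was 0.94 (adjusted p = 4.42e-06). A second probe set gave 0.55 (adjusted p = 0.0325). Hke3 minus Hkh-2 was -0.99 (adjusted p = 0.0103) and -0.74 (adjusted p = 0.00847) with the second probe set.

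In the membrane part, ATP5MC1, one of 3 genes for the ring of c subunits that turns as protons pass, was lowest in Hkh-2. It read 11.29, 11.09 and 11.25 in HCT116 vehicle, 11.30, 11.27 and 11.18 with doxycycline, 11.47, 11.50 and 11.37 in Hke3, and 10.70, 10.77 and 10.89 in Hkh-2. None of the cell lines overlapped. The difference was -0.24 (adjusted p = 0.0287) from Hke3, 0.42 (SE 0.08, adjusted p = 0.00118) from Hkh-2 and 0.66 (adjusted p = 3.69e-05) for Hke3 minus Hkh-2. Its sister genes ATP5MC2 and ATP5MC3, which encode the same mature protein, were not called by their brightest probe sets, with absolute differences of up to 0.12. With every probe set tested by itself, the dimmest of ATP5MC3 gave 0.48 for HCT116 minus Hkh-2 (adjusted p = 0.0246). The remaining one gave -0.02 (adjusted p = 0.853). The small membrane subunits ATP5MK (-0.24 from Hke3 and -0.21 from Hkh-2) and ATP5MJ (-0.35 from Hkh-2) were lower in HCT116. In the peripheral stalk, which holds the F1 part still, ATP5PO (0.21) and ATP5PB (0.18) were higher in HCT116 than in Hke3.

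ATP5IF1 encodes the inhibitor that binds the F1 part. It was lower in HCT116 vehicle, at 10.90, 10.80 and 10.81, than in Hke3, at 11.17, 11.22 and 11.03, with Hkh-2 lowest at 10.68, 10.75 and 10.75. The difference from Hke3 was -0.30 (adjusted p = 0.00396) and Hke3 minus Hkh-2 was 0.41 (adjusted p = 0.000647). With every probe set tested by itself, a second gave -0.27 from Hke3 (adjusted p = 0.0314), but the remaining one gave 0.39 (adjusted p = 0.00965), so the probe sets of the gene went opposite ways.

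Among the 8 assembly factors of complex I, HCT116 had 2 higher and 3 lower against Hke3, with 0 and 3 when set against Hkh-2, while Hke3 against Hkh-2 had 1 and 3. That is 62.5%, 37.5% and 50% called, beside 47.8%, 36% and 39.8% of all genes tested. NDUFAF2 is a paralog of NDUFA12 and holds its place in an assembly intermediate. It read 10.44, 10.42 and 10.41 in HCT116 vehicle, 10.46, 10.46 and 10.51 with doxycycline, 9.82, 9.77 and 10.03 in Hke3, and 10.65, 10.72 and 10.55 in Hkh-2. The 3 lines did not overlap, with Hkh-2 highest and Hke3 lowest. HCT116 minus Hke3 was 0.55 (SE 0.08, adjusted p = 9.78e-05), HCT116 minus Hkh-2 was -0.22 (adjusted p = 0.0481, lost in 9 of 12 fits without 1 array, at up to 0.169), and Hke3 minus Hkh-2 was -0.77 (adjusted p = 8.11e-06). NDUFA12 itself was lowest in Hkh-2.

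NDUFAF3 and NDUFAF4 act together on the part of complex I that binds ubiquinone. NDUFAF3 read 9.71, 9.70 and 9.71 in HCT116 vehicle, 9.72, 9.72 and 9.69 with doxycycline, 10.29, 10.19 and 10.36 in Hke3, and 9.78, 9.79 and 9.90 in Hkh-2. Hke3 stood above all other arrays, at -0.58 (SE 0.07, adjusted p = 1.98e-05) for HCT116 minus Hke3 and 0.46 (adjusted p = 0.000194) for Hke3 minus Hkh-2. NDUFAF4 had the opposite signs, 0.26 (adjusted p = 0.0282) and -0.47 (adjusted p = 0.00103). NDUFAF7, a methyltransferase for a core subunit, was lower in HCT116 than in Hke3 (-0.35, adjusted p = 0.0372), and NDUFAF6 was lower than in Hkh-2 (-0.29) and lower in Hke3 than in Hkh-2 (-0.49). NDUFAF8 gave -0.19 from Hke3 and -0.33 from Hkh-2 with its brightest probe set, but 0.23 and 0.02 without probe sets that may bind several transcripts. NDUFAF1 and NDUFAF5 were not called.

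Of the other transcripts, COX7A2L, a factor for supercomplexes of complexes III and IV, was not called in any comparison (-0.08 from Hke3, 0.02 from Hkh-2). COX6A1P1, a pseudogene whose probes may read transcripts of other copies, and NDUFB2-AS1, an antisense RNA, were higher in HCT116 than in Hke3 by 0.35 and 0.27, at group means between 6.00 and 6.70. NDUFV1-DT was not called.

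**Figure D4:**
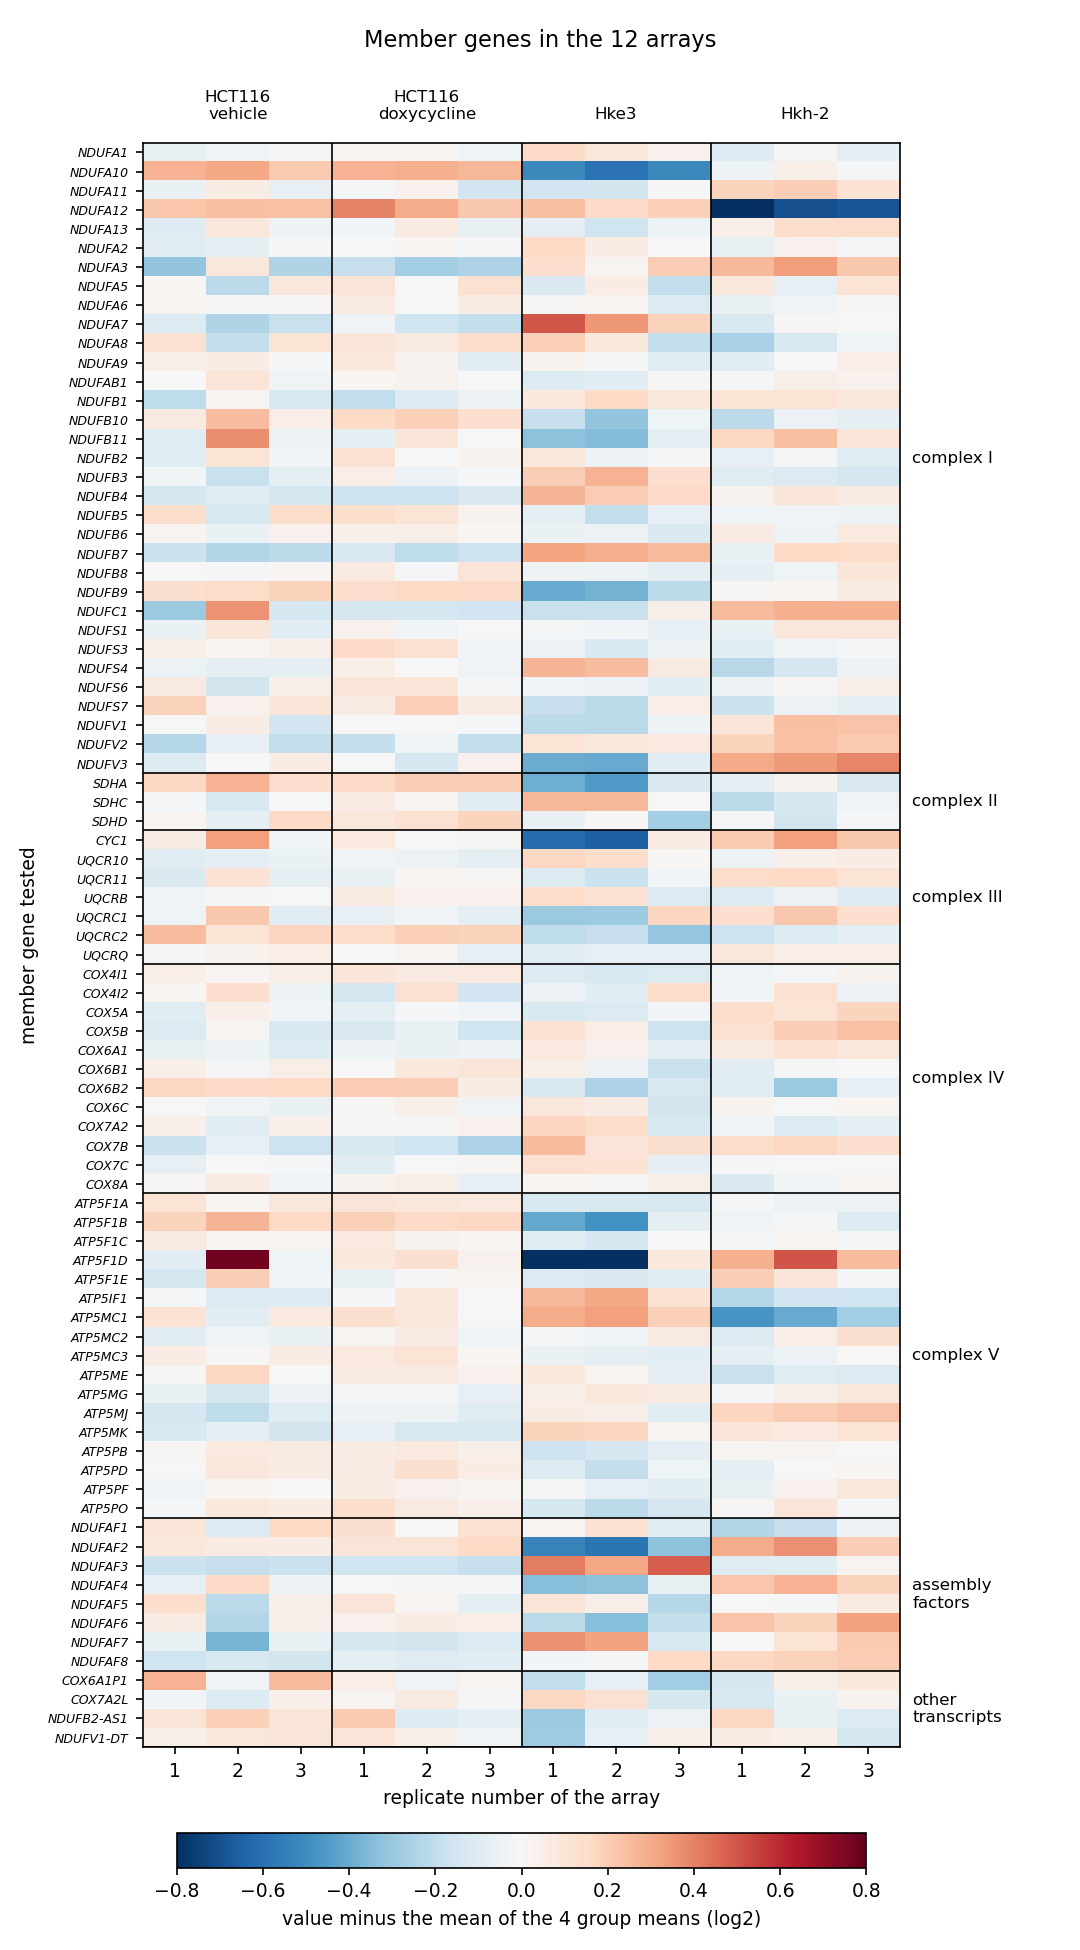
Values of the 84 tested members (rows, by class) in the 12 arrays (columns, by group and replicate number), each minus the mean of the gene's 4 group means (log2, colour bar). Values past the ends of the bar take the end colours. Most rows stay pale, NDUFA12 is blue in the Hkh-2 arrays alone, and replicate 2 of HCT116 vehicle and replicate 3 of Hke3 differ in many rows from their groups.

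Doxycycline by itself was compared with vehicle in the HCT116 control cells. No member was called by limma (0%), and no gene of the 12852 was. The other settings run called no member either. At an unadjusted p under 0.05, 0 of 84 members and 127 of all genes (0.988%) differed. The members' differences ran from -0.15 for COX6A1P1 to 0.11 for NDUFA5, with a median of 0.02 beside 0.00 over all genes, and a median absolute value of 0.0372 beside 0.0536. With 3 arrays a group, a difference of this size was not detectable, which does not show that there was none.

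The members as a whole shifted little from array to array. The median deviation of the 84 members from their gene means lay between -0.01 and 0.01 in HCT116 vehicle, 0.00 and 0.04 with doxycycline, -0.06 and -0.04 in Hke3, and -0.02 and 0.03 in Hkh-2. So the 3 Hke3 arrays were the lowest, by a few hundredths of a log2 unit. The 5′ minus 3′ difference of the actin control probe sets was -0.85 to -0.48 in HCT116 vehicle, -0.94 to -0.71 with doxycycline, -0.58 to -0.23 in the Hke3 arrays and -0.32 to -0.23 in those of Hkh-2. For the GAPDH control probe sets the ranges overlapped, at -0.03 to 0.09, 0.01 to 0.08, 0.00 to 0.11 and -0.03 to 0.02. The arrays that stood apart had the least negative actin values of their groups. These were -0.48 in HCT116 vehicle replicate 2, against -0.85 and -0.72, and -0.23 in Hke3 replicate 3, against -0.58 and -0.51. The part of the actin difference in the results was not tested.

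The printed windows can be set beside the calls. Of 72 tested members with a window, 40 held at least 1 of the 3 cores. Those with a core were called against Hke3 in 14 of 40 cases (35%) and those without in 16 of 32 (50%), against Hkh-2 in 7 (17.5%) and 11 (34.4%), and between the recombined lines in 8 (20%) and 14 (43.8%). Of all genes tested, 47.8%, 36% and 39.8% were called in these comparisons. These shares are a description over members that were chosen by name, and 15 members had no window. The same split was not made for all genes tested, so fewer calls beside a core cannot be read as particular to the members. NDUFA12, without a core in its window, was the member with the largest called difference from Hkh-2, and SDHD, with all 3 kinds, was not called.

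The factors known to act on these promoters were measured on the same arrays. They were listed with POLRMT, TFAM, TFB1M and TFB2M, which act on mitochondrial DNA and not on the members' promoters. NRF1 itself had group means of 8.12 to 8.21 and was not called, nor were GABPA, TFAM and TFB1M. YY1 was not called against Hke3 (-0.09). Of 11 tested regulators, 54.5% were called against Hke3, 18.2% against Hkh-2 and 45.5% between the recombined lines. All genes tested had 47.8%, 36% and 39.8%. Among the regulators, HCT116 had 5 higher and 1 lower against Hke3, with 0 and 2 when set against Hkh-2, while Hke3 against Hkh-2 had 0 and 5. The 5 were POLRMT, the mitochondrial RNA polymerase (1.08, adjusted p = 0.00123), the coactivators PPARGC1B (0.87, adjusted p = 8.42e-05) and PPRC1 (0.82, adjusted p = 0.000833), the nuclear receptor ESRRA (0.50, adjusted p = 0.00372) and the transcription factor TFB2M (0.47, adjusted p = 0.000104). With the mean of its probe sets TFB2M gave 0.12 (adjusted p = 0.159). Without both arrays that lay apart POLRMT gave 1.05 and PPRC1 0.79 against Hke3, and 0.09 each against Hkh-2. The differences of the 5 from Hkh-2 were 0.35, 0.27, 0.26, 0.17 and -0.11, and none was called. GABPB1, a GABP subunit, was lower in HCT116 than in either recombined line (-0.70 from Hke3, -0.57 from Hkh-2), and YY1 was lower than in Hkh-2 by -0.20 (adjusted p = 0.0462) with its brightest probe set but not with the mean of its probe sets (0.33). PPARGC1A stayed under 6 in every group.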

How the data were processed

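RNA from 12 samples was hybridised to Affymetrix arrays of 54675 probe sets. The deposited values are log2 expression values that the authors summarised per probe set with RMA (background correction, quantile normalisation and median polish). Quantile normalisation gives all arrays the same distribution of probe intensities, so a shift common to most genes cannot be seen. The summarised values still differed a little between arrays, with medians over the tested genes of 8.48 to 8.63. The tool version was not given in the sources used here. Groups came from the sample titles. Names came from the annotation table of the platform: 41097 had 1 symbol (41043 matched in RefSeq), 1801 had several and 11777 were unnamed here. The 15 probe sets of several genes that include a member symbol were left out.

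The probe set with the highest mean stood for each gene, and genes with at least 1 group mean of 6 were fitted over all 12 arrays (8 residual degrees of freedom) with lmFit, contrasts.fit and eBayes of limma 3.58.1 in R 4.3.3, with Benjamini-Hochberg adjustment over 12852 genes and a threshold of 0.05. The scripts were tested on simulated data. Precision is limited by how few arrays there are, and an exact permutation test of 3 against 3 cannot go below a two-sided p of 0.1. Differences are between values on the log2 scale, and the level of 1 probe set was not read as more or less transcript than that of another. Of the 84 members, 47 were tested through probe sets whose names end in _s_at, _x_at or _a_at and which may bind several transcripts. Among called members, the arrays of the groups did not overlap in 28 of 36 against Hke3 (77.8%), 19 of 19 against Hkh-2 (100%) and 27 of 28 between the recombined lines (96.4%), beside 90.2%, 98.1% and 94.3% of all genes called.

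Members and gene lists were chosen with earlier results of these data known. Genes were named by rule: per comparison the 6 largest positive and 6 largest negative differences among called members whose arrays did not overlap, the largest called difference of each complex, all of complex II, tissue isoforms of complex IV, members whose probe sets disagreed, and up to 4 called genes per other list with all regulators. The other called members and the chromosomal neighbours were named after their values were seen. Alternatives covered the choice of probe sets, the filter, the scaling, the arrays fitted and the pairing. Deviations of same-numbered vehicle and doxycycline arrays from their group means correlated at 0.23, 0.21 and 0.45 over all genes tested. Other pairs reached similar or higher values. Replicate 2 of vehicle and of Hkh-2 had 0.42, and vehicle replicate 3 and Hke3 replicate 2 had 0.49. Vehicle replicate 2 and Hke3 replicate 3, the arrays that stood apart, had 0.68. These values therefore do not settle whether replicate numbers pair the arrays, and the number served as a block only in an alternative fit. The targeted gene is not reported here.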

Additional observations from a re-analysis of the deposited data

Results flagged for a closer look

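The difference from HCT116 control vehicle was not the same in both recombined lines for 28 of the 84 tested members: the test of that difference is Hke3 minus Hkh-2 in limma, since the vehicle arrays cancel. Among all genes tested, 16.3% were higher and 23.5% lower in Hke3 by the same test. Values below are Hke3 minus Hkh-2 on the log2 scale. Of the genes that were higher in Hke3, NDUFA12 (0.92), NDUFA7 (0.38), NDUFS4 (0.33), NDUFB3 (0.32) and NDUFB7 (0.20) belong to complex I and NDUFAF3 (0.46) to its assembly, SDHC (0.30) to complex II, and ATP5MC1 (0.66) and ATP5IF1 (0.41) to complex V. Of those that were lower in Hke3, complex I had NDUFV3 (-0.64), NDUFA10 (-0.54), NDUFB11 (-0.42), NDUFC1 (-0.38), NDUFB9 (-0.36), NDUFV1 (-0.34), NDUFA11 (-0.27) and NDUFA13 (-0.20). The assembly factors NDUFAF2 (-0.77), NDUFAF6 (-0.49) and NDUFAF4 (-0.47) were lower as well. In complexes II to IV these were SDHA (-0.27), CYC1 (-0.65), UQCR11 (-0.24) and COX5A (-0.23), and in complex V ATP5F1D (-0.99), ATP5F1B (-0.27), ATP5PO (-0.19) and ATP5MJ (-0.19). ATP5PO turned to 0.06 with the mean of its probe sets.

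HCT116 minus Hke3 was 0.04 for NDUFA12 and -0.24 for ATP5MC1, and HCT116 minus Hkh-2 was 0.96 and 0.42. For ATP5F1D and CYC1 the same pairs were 0.86 and -0.13, and 0.53 and -0.13. In both genes Hke3 replicate 3 lay within the range of the HCT116 vehicle arrays, and without it and HCT116 control vehicle replicate 2 Hke3 minus Hkh-2 was -1.35 and -0.89. Leaving out 1 array at a time kept 15 of the 28 differences called in every fit, and none changed sign.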

How the results depend on the processing

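Over all alternatives, 2400 of 2748 values of named members kept their direction and their side of the threshold, 311 lost their call, 29 gained one and 8 reversed. Counts are members higher and lower in HCT116 control vehicle, or in Hke3 where it is set against Hkh-2. Shares of all genes are given above only for array medians, cyclic loess and the fit without both arrays that stood apart. The other counts here and in the next paragraph have no such share beside them. They show how far the calls moved and are not a result about the members. The cause of these changes was not tested. With the mean of all probe sets, 11 were lower against Hke3 (median 0.074) and 8 against Hkh-2 (median 0.019), and the median of Hke3 minus Hkh-2 was -0.033. Without probe sets that may bind several transcripts, 9 were lower against Hke3 (median 0.096) and 7 against Hkh-2 (median 0.019), and Hke3 minus Hkh-2 had 5 higher and 12 lower. The median against Hkh-2 was -0.022 with no filter, and a mean of at least 8 gave medians of 0.048 and -0.029 against Hke3 and Hkh-2. Subtracting array medians gave 0.011 and -0.041. Cyclic loess gave 11 higher and 8 lower against Hkh-2 (median 0.014) and 12 lower for Hke3 minus Hkh-2 (median -0.033). Fitting only the arrays compared left 8 higher and 7 lower against Hke3. That kept 15 of the 36 members called in the main fit and lost 21. Trended robust eBayes gave 10 higher against Hkh-2. Pooling vehicle and doxycycline arrays gave 11 higher against Hkh-2 and a median of 0.071 against Hke3. Without both arrays that stood apart, the median against Hke3 was 0.045, and there were 12 higher and 25 lower against Hkh-2 and 18 higher for Hke3 minus Hkh-2.

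Leaving out 1 array at a time, the counts against Hke3 ran from 9 (without Hke3 replicate 2) to 22 higher and from 11 (without Hke3 replicate 1) to 16 lower, with medians of 0.036 to 0.065. Against Hkh-2 they ran from 5 to 10 (without Hke3 replicate 3) higher and 8 (without HCT116 control vehicle replicate 1) to 19 lower, with medians of -0.022 to 0.0020. For Hke3 minus Hkh-2 they ran from 7 to 14 (without Hke3 replicate 3) higher and 8 (without Hke3 replicate 2) to 21 lower, with medians of -0.078 to -0.048. Doxycycline kept 0 calls, with medians of 0.01 to 0.03. Every such fit kept 18 of 36, 12 of 19 and 15 of 28 called members. With the replicate number as a block, 17 higher and 13 lower, 5 and 10, and 8 and 15 members were called, 30, 15 and 23 of the members called without it, and doxycycline stayed at 0. Same-numbered arrays did not all correlate best: 6 of 12 did with their own number.

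Values that turned, by the mean of all probe sets: against Hke3, YY1 0.27 and NDUFAF8 0.035. Against Hkh-2, YY1 was 0.33, SUCLG1 -1.10, IDH3A 0.059 and HSPA9 0.030. For Hke3 minus Hkh-2, SUCLG1 was -1.35 and ATP5PO 0.055. Without probe sets that may bind several transcripts, ATP5IF1 (0.39), YY1 (0.60), NDUFAF8 (0.23) and UQCR10 (0.14) turned against Hke3, and NDUFV3 (0.22), NDUFAF8 (0.021), YY1 (0.29), IDH3A (0.57), HSPA9 (0.14) and COX5B (0.64) against Hkh-2.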

Other observations

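Assembly factors outside the symbol rule were measured as a separate list of 40 tested genes. Against Hke3, HCT116 control vehicle had 18 higher and 6 lower. Against Hkh-2 it had 6 and 10, and Hke3 against Hkh-2 had 3 and 15, where the shares of all genes tested were 24.6% and 23.2%, 14.3% and 21.7%, and 16.3% and 23.5%. ECSIT, which acts in complex I assembly, was higher in HCT116 than in Hke3 by 0.99 (adjusted p = 7.74e-06) and LRPPRC, which stabilises mitochondrial transcripts, by 0.97 (adjusted p = 2.08e-07). SCO1 (0.64) and COX10 (0.55), both needed for complex IV, were higher too. Against Hkh-2, LYRM7, a complex III factor, was higher in HCT116 by 0.81, while NUBPL, which delivers iron-sulfur clusters to complex I, was lower by -1.23 and COX20 by -0.84. ATPAF2, a chaperone for the F1 part of complex V, went opposite ways: 0.37 from Hke3 (adjusted p = 0.00184), -0.58 from Hkh-2 (adjusted p = 6.92e-05) and -0.95 for Hke3 minus Hkh-2. COX17 had no group mean of 6.

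In the citric acid cycle, HCT116 had 7 of 11 tested genes higher and 1 lower against Hke3, with 2 and 2 when set against Hkh-2, while Hke3 against Hkh-2 had 1 and 4. The shares called were 72.7%, 36.4% and 45.5%, beside 47.8%, 36% and 39.8% of all genes tested. OGDH (0.55), MDH2 (0.54), DLST (0.54) and CS (0.44) were the largest of the 7, and IDH3G (-0.43) was the 1 lower. SUCLG1 was higher in HCT116 than in Hkh-2 by 0.52 with its brightest probe set, and its direction turned with the mean of its probe sets. Of 7 tested carriers and electron transfer genes, HCT116 had 3 higher against each recombined line and none lower, while Hke3 against Hkh-2 had 1 higher. The 3 were the adenine nucleotide carriers SLC25A4 (0.39 and 0.62) and SLC25A5 (0.35 and 0.21) and the electron transfer flavoprotein ETFB (0.32 and 0.42). Of this list, 42.9%, 42.9% and 14.3% were called in the 3 comparisons. Cytochrome c (CYCS), which links complexes III and IV, was not called, with 0.05 and 0.02. Of 10 membrane and chaperone genes, HCT116 had 6 higher and none lower against Hke3, with 4 and 1 when set against Hkh-2, while Hke3 against Hkh-2 had 1 and 3. Called were 60%, 50% and 40% of them, beside the same shares of all genes as above. TOMM40 (0.54, and 0.64 without both arrays that lay apart) and IMMT (0.49) were the largest of the 6, whereas HSPD1, HSPE1 and VDAC3 were not called in any comparison.

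Markers of other cell types gave these values. Of 9 tested colon epithelium markers, HCT116 had 2 higher and 2 lower against Hke3, with 0 and 5 when set against Hkh-2, while Hke3 against Hkh-2 had 0 and 5. Their shares called were 44.4%, 55.6% and 55.6%, beside 47.8%, 36% and 39.8% of all genes tested. KRT20 was -2.22 and CDH1 -1.17 for HCT116 minus Hkh-2. Of 4 tested fibroblast markers, COL3A1 alone was called, with means of 4.49 in HCT116 vehicle, 4.45 in Hke3 and 6.73 in Hkh-2. It was tested only because Hkh-2 passed the mean of 6, so its call is tied to that filter. The share called was 25% in both comparisons with Hkh-2, beside 36% and 39.8% of all genes. COL1A1 (group means of 8.19 to 8.43), THY1 (6.80 to 6.94) and DCN (6.01 to 6.21) were not called, while COL1A2, PDGFRB and LUM had no group mean of 6. Of 4 tested striated muscle markers, MB had a mean over 6 in Hke3 alone (6.29), so it was tested only through that group. MB was lower in HCT116 than in Hke3 by -0.66, and DES was higher in HCT116 by 0.33 against Hke3 and 0.26 against Hkh-2. MYH2, MYH7 and CKM had no group mean of 6. The 1 tested blood cell marker, CD3E, was not called. The part of these differences in the members' results was not tested.

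Genes next to 3 differing genes in the RefSeq order were looked up after those values were seen. TMCC3 and NR2C1, which flank NDUFA12 on chromosome 12, had -0.21 and 0.13 for HCT116 minus Hkh-2, and neither was called, where NDUFA12 had 0.96. The next gene past NR2C1, FGD6, was called and higher in HCT116, at 0.78 (adjusted p = 0.00116). From Hke3 the difference of FGD6 was -0.73 (adjusted p = 0.00133). Further out than the flanking genes, VEZT (-0.22), CRADD (-0.32) and SOCS2 (-0.64) were called and lower in HCT116 than in Hkh-2. HDAC4 and COPS9 flank NDUFA10 on chromosome 2 and had 0.32 (adjusted p = 0.0316) and 0.15 (adjusted p = 0.226) for HCT116 minus Hke3, where NDUFA10 had 0.80. Around ATPAF2 on chromosome 17, Hke3 minus Hkh-2 was -2.12 for TOM1L2, -0.95 for ATPAF2 itself, -0.81 for GID4 and -0.92 for DRG2, all called, and -0.24 for ALKBH5 (adjusted p = 0.135). On the side of TOM1L2, SREBF1 (-0.21, adjusted p = 0.464) and RAI1 (-0.33, adjusted p = 0.0777) were not called.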
